A study of Mus musculus with 6 samples.

Results

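Itgae, Itga1, Cd69, S1pr1, Klf2 and Cdh1 were followed through single cells of mouse skin. These 6 genes, of 16158 gene columns in each of the 6 deposited tables, are the receptors and regulators that hold T cells in a tissue or let them leave it, with the epithelial ligand of one of them. They were chosen by name, and every one had a column in all 6 tables. The series asks how PD-1 bears on effector CD8 T cells that enter skin. It holds 3 groups of 2 mice, labelled NO_AG, AG and AG_CPI, with 1 library per mouse. The design text calls them Ag OFF, Ag ON and Ag ON/CPI, and the labels do not spell out Ag or CPI. All 3 groups were NINJA mice of 6 to 12 weeks, and in each the skin area treated with 4-OH-Tam was dissociated and run on a 10x 5′ gene expression kit. The labels' protocol names P14 CD8 T cells, which carry 1 transgenic receptor, as cells recovered from each mouse; it does not say how many were given or when. Per that protocol, visible skin disease and the number and function of these cells in skin were checked against the expected phenotype of each animal before sequencing, so numbers of these cells between groups are not used as results. Replicates are labelled as biological, and each group has 2, so every standard deviation below is from 2 mice.

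A T cell enters skin from blood and stays there, or returns through lymphatic vessels. The integrin alpha chains CD103 (Itgae, which pairs with the beta chain Itgb7) and CD49a (Itga1, which pairs with Itgb1) bind E-cadherin (Cdh1) on epithelial cells and collagen IV, respectively. CD69 binds the sphingosine-1-phosphate receptor S1PR1 and takes it off the surface, and the transcription factor KLF2 drives S1pr1 transcription. Resident T cells of skin are known for CD103, CD49a and CD69 and for low Klf2 and S1pr1.

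By GENCODE vM21 on GRCm38 (mm10), the build named in the submitters' processing notes, Itgae lies on chromosome 11 from 73090583 to 73147446 on the plus strand and Itga1 on chromosome 13 from 114953096 to 115101964 on the minus strand. Cd69 lies on chromosome 6 from 129267325 to 129275436 and S1pr1 on chromosome 3 from 115710433 to 115715072, both on the minus strand. Klf2, from 72319033 to 72321656, and Cdh1, from 106603351 to 106670246, are both on the plus strand of chromosome 8. RefSeq promoter sequence (GRCm38.p6) was on hand for 2 of the 6 genes. A 5′ kit reads molecules from their start, so the stretch just upstream of the start, 200 bases ending 51 bases before the RefSeq transcript start, is shown for these 2, the gene whose level changed in T cells and the regulator whose level did not pass the test there. The capitals mark CACCC, the core bound by KLF factors, and GGGCGG, the GC box, on either strand.
Itga1, chr13:115102015-115102214, minus strand: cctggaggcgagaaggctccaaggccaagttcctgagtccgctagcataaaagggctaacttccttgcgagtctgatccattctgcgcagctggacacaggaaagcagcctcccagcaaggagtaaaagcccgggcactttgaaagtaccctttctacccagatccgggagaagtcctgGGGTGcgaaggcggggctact
Klf2, chr8:72318812-72319011, plus strand: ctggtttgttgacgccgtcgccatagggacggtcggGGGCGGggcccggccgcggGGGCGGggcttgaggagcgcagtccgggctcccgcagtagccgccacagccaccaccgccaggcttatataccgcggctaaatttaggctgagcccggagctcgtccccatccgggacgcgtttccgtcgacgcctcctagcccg
The Itga1 stretch holds CACCC 1 time, on the opposite strand, and no GGGCGG, and the Klf2 stretch holds GGGCGG 2 times and no CACCC. Of 32851 RefSeq stretches of the same length, 44.4% hold CACCC and 24.6% hold GGGCGG. The RUNX core TGTGGT, in 11.6% of them, is in neither.

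The tables hold 21178 cells, 1736 to 4972 per mouse, with median depths of 2527 to 4744 unique molecular identifiers (UMIs, counted molecules) per cell; between 5 and 35 barcodes were shared by any 2 libraries. Of these cells, 20461 passed the filters. A level is the number of UMIs per 10000 in each cell, as a mean over a mouse's cells of 1 class; these libraries read transcript ends, so gene length enters little, and differences between genes are not read as differences in transcript number. Over all cells Cdh1 had 9793 UMIs, Cd69 7590, Itgae 7542, Itga1 2627, Klf2 1744 and S1pr1 348, so statements on S1pr1 rest on few molecules. The CD8 gate took alpha-beta T clusters and kept cells with a Cd8a or Cd8b1 UMI and no Cd4 UMI: 119 and 377 in the NO_AG mice, 959 and 759 in the AG mice, and 1108 and 1184 in the AG_CPI mice (replicates 1 and 2, in this order throughout). They were split by a UMI of Trbv13-3, the beta-chain segment of the P14 receptor, found in 2 and 12 cells of the NO_AG mice, 471 and 456 cells of the AG mice and 646 and 807 cells of the AG_CPI mice. A cell without this UMI can still be a P14 cell whose segment was not read. A UMI of Trdc, the constant segment of the gamma-delta receptor, did not keep a cell out of the CD8 gate, and its level there moved with the groups. It was at 0 and 0.0363 in the NO_AG mice, 1.41 and 2.00 in the AG mice, and 2.94 and 2.47 in the AG_CPI mice, beside 9.43 to 11.8 in gamma-delta T cells. In cells with Trbv13-3 it was at 2.53 and 2.58 in the AG mice and 3.2 and 2.98 in the AG_CPI mice, and in cells without, at 0.333 and 1.13 in the AG mice and 2.57 and 1.39 in the AG_CPI mice. The part of these cells in the results was not tested beyond a gate that allowed no Trdc UMI, given below where it ended a call or brought one in.

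Across cell classes, Itgae and Cd69 were high in the T cells and near background in keratinocytes. Itga1 was found in CD8 T cells, natural killer or innate-like cells and endothelial-like cells (0.515 to 1.53), and Cdh1 in keratinocytes, melanocyte or Schwann-like cells, dendritic or Langerhans-like cells and gamma-delta T cells. In natural killer or innate-like cells Cdh1 ranged from 0 to 1.66 over 4 mice. The melanocyte or Schwann-like cells also had a summed list of keratinocyte genes at 21.4 to 329, beside 431 to 554 in keratinocytes. The plot of levels by class shows 5 classes. Itgae ranged over mice from 2.78 to 3.92 UMIs per 10000 in gamma-delta T cells, from 1.63 to 3.61 in CD4 T cells, and from 0.0238 to 0.0979 in keratinocytes, which are not known to make it. The share of keratinocytes with an Itgae UMI, 0.943% to 3.57%, is the background against which T-cell shares are read. Itga1 was 0.498 to 1.89 in CD8 T cells, 0 to 0.361 in CD4 T cells and 0 to 0.0846 in gamma-delta T cells, where the keratinocyte level was 0.041 to 0.0764. Its level in CD4 and gamma-delta T cells therefore overlapped that of keratinocytes. In the natural killer or innate-like cluster, Itgae reached 3.66 to 6.25 and Itga1 0.946 to 2.13 over 4 mice.

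**Figure D1:**
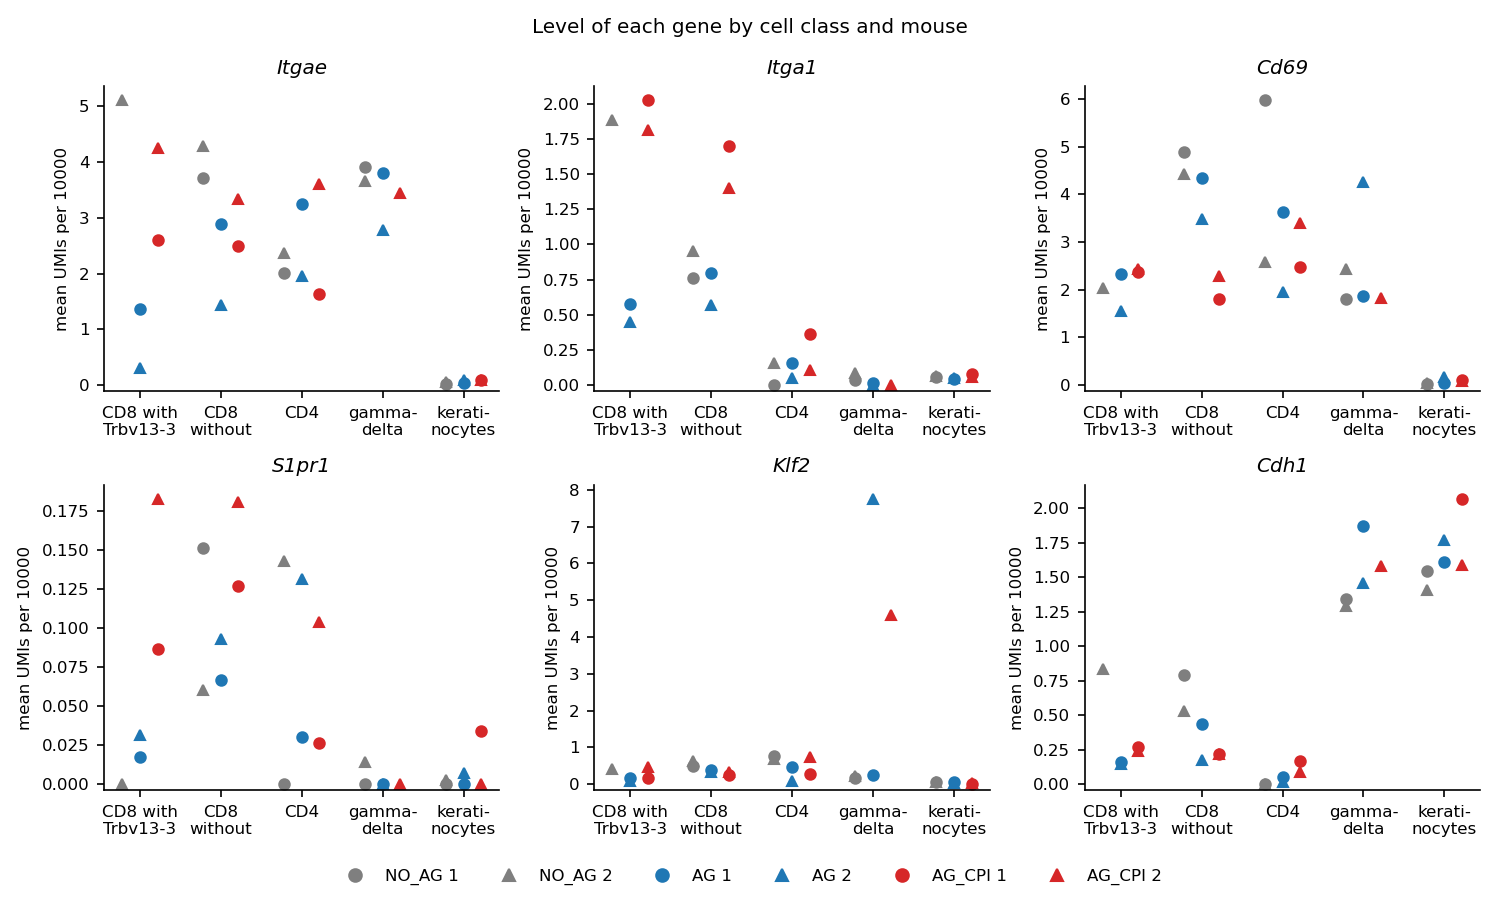
Mean UMIs per 10000 of each gene (vertical axis) in 5 cell classes (horizontal axis); each point is 1 mouse with at least 10 cells of the class, coloured by group and shaped by replicate. Itgae, Cd69 and Itga1 sit near 0 in keratinocytes, Itga1 is low outside CD8 T cells, and Klf2 stands out in the gamma-delta T cells of AG 2, at 7.75.

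In all CD8 T cells, Itgae, the alpha chain of CD103, was at 3.66 and 4.31 UMIs per 10000 in the NO_AG mice, 2.14 and 0.755 in the AG mice, and 2.56 and 3.96 in the AG_CPI mice. Both AG mice lay below both mice of either other group, and AG 2 was the lowest of the 6. Group means were 3.98 ± 0.463, 1.45 ± 0.982 and 3.26 ± 0.993 (SD, n = 2 mice each). Itgae fell in AG against NO_AG, by 1.46 on the log2 scale (SE 0.34, limma adjusted p = 0.0413); AG_CPI against AG was 1.22 (95% interval 0.48 to 1.96, adjusted p = 0.354) and AG_CPI against NO_AG was -0.24 (adjusted p = 0.769). The AG_CPI against AG difference was 0.53 without AG 2 and 1.91 without AG 1, where it was called (adjusted p = 7.97e-04). The call of AG against NO_AG lies at the threshold: the adjusted p was 0.238 without NO_AG 1, 0.126 without NO_AG 2 and 0.16 without AG 2, where the change was -0.77, and 6 other settings also lost it, among them a gate that allowed no Trdc UMI (-1.29, adjusted p = 0.0641). The shares of cells with an Itgae UMI were 51.3% and 65.8%, 36.2% and 14%, and 33.8% and 53.8%. Here AG_CPI 1 lay below AG 1, so AG and AG_CPI overlapped, which their levels did not. With each cell thinned to 1500 UMIs the shares were 37% and 47%, 23.7% and 9.35%, and 25.8% and 39.4%.

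Among CD8 T cells with a Trbv13-3 UMI, Itgae was at 1.37 and 0.3 UMIs per 10000 in the AG mice and 2.6 and 4.26 in the AG_CPI mice. Both AG_CPI mice lay above both AG mice, with a difference of 2.13 on the log2 scale (95% interval 1.15 to 3.12) that did not pass the test (adjusted p = 0.0527). Other settings put this p on both sides of the threshold, among them 0.0375 with a pseudocount of 0.5 and 0.286 with no filter on low values. The difference was 1.20 without AG 2 and 3.07 without AG 1, and it passed without any 1 of the mice in the fit. NO_AG 1, with 2 such cells, did not enter the fit. The share of these cells with an Itgae UMI was 27.4% (95% Wilson interval 23.6 to 31.6, counting error only) and 6.36% (4.46 to 8.98) in AG, and 36.4% (32.8 to 40.2) and 59.6% (56.2 to 62.9) in AG_CPI. The deeper cells were those with the lower shares, at medians of 3430 and 3358 UMIs in AG and 2342 and 2730 in AG_CPI. Only 1 NO_AG mouse had at least 10 such cells, 12 cells with Itgae at 5.11, so no comparison was made with that group.

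In CD8 T cells without a Trbv13-3 UMI, Itgae was at 3.72 and 4.29 in the NO_AG mice, 2.89 and 1.44 in the AG mice, and 2.5 and 3.33 in the AG_CPI mice. AG_CPI against AG was 0.45 (95% interval -0.09 to 0.98, adjusted p = 0.806), and AG against NO_AG was -0.83 (adjusted p = 0.245). Both turned on the AG mice. The first was -0.04 without AG 2 and 0.93 without AG 1, where it was called (adjusted p = 0.0342). The second was -0.34 without AG 2 and -1.33 without AG 1, where it was called (adjusted p = 3.20e-04). Another Trbv UMI was present in 72.7% and 41.6% of these cells in AG and in 28.8% and 48.8% in AG_CPI. The others had no Trbv UMI, and what they are was not tested. Among those with another Trbv UMI, Itgae was 3.44 and 4.51 in the NO_AG mice, 3.15 and 1.94 in the AG mice, and 1.09 and 1.26 in the AG_CPI mice. Both AG_CPI mice were then the lowest, and the sign turned: Itgae fell in AG_CPI against AG by 1.04 (adjusted p = 0.0238) and against NO_AG by 1.60 (adjusted p = 3.08e-04).

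The group difference in Itgae was itself different in the 2 kinds of CD8 T cell. Within a mouse, cells with Trbv13-3 had less Itgae than cells without it in AG 1 and AG 2, by -1.02 and -1.94 on the log2 scale, and as much or more in AG_CPI 1 and AG_CPI 2, by 0.06 and 0.34. The interaction of segment and group, with the mouse as a block, was 1.68 (SE 0.233, 95% interval 1.17 to 2.19, adjusted p = 0.00411). It was 3.16 (adjusted p = 2.95e-07) when another Trbv UMI was required of the cells without Trbv13-3. The call was lost without AG_CPI 1 (1.83), without AG_CPI 2 (1.53), with no filter on low values (adjusted p = 0.0787), and when the mouse was not used as a block (adjusted p = 0.795). Averaged over both groups, cells with and without the segment did not pass the test for any of the 6 genes, 0 of 6 by limma where 0.134% of 7464 genes passed and 530 genes had an unadjusted p under 0.05; for Itgae the difference was -0.67 (95% interval -1.33 to -0.01).

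**Figure D2:**
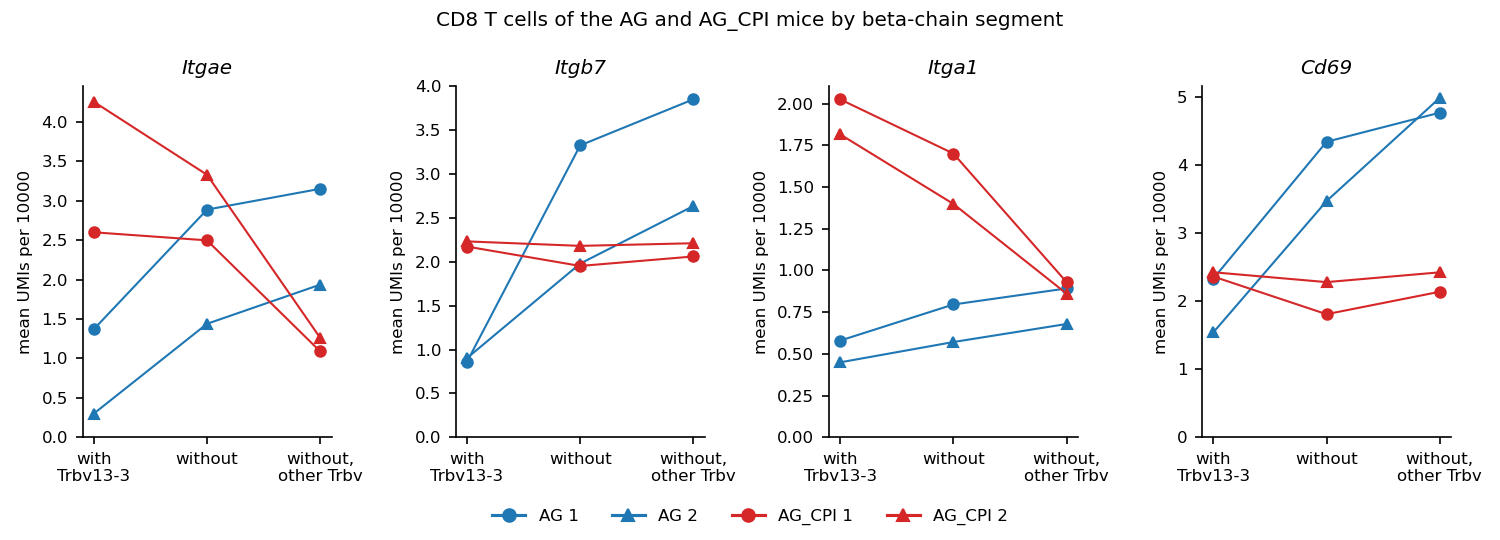
Mean UMIs per 10000 of Itgae, Itgb7, Itga1 and Cd69 (vertical axes) in the AG and AG_CPI mice, in CD8 T cells with a Trbv13-3 UMI, without one, and without one but with a UMI of another beta segment (horizontal axis); each line joins the values of 1 mouse. For Itgae, the AG lines rise from left to right, from 1.37 to 3.15 and from 0.3 to 1.94, and the AG_CPI lines fall, from 2.6 to 1.09 and from 4.26 to 1.26.

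Itgb7, the beta chain with which CD103 reaches the surface, was at 0.861 and 0.902 in the AG mice and 2.17 and 2.23 in the AG_CPI mice in CD8 T cells with Trbv13-3. The mice of a group were close together and the groups far apart, and Itgb7 rose by 1.20 (SE 0.171, adjusted p = 0.0103). In cells without the segment it was at 3.33 and 1.98 in the AG mice and 1.95 and 2.18 in the AG_CPI mice, a difference of -0.33 (adjusted p = 0.864). Its interaction, 1.53 (SE 0.222, adjusted p = 0.00535), had the sign of that of Itgae. Without AG_CPI 2 no gene at all was called for the interaction by limma, so this call too was lost. With no filter on low values none was called in the cells with Trbv13-3 either, which ends the call of Itgb7 there. Itgb1, the partner of CD49a, was at 0.923 and 1.71 in the AG mice and 1.79 and 2.33 in the AG_CPI mice in cells with the segment (0.62, adjusted p = 0.381).

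Itga1, the alpha chain of CD49a, was in all CD8 T cells at 0.746 and 0.981 UMIs per 10000 in the NO_AG mice, 0.69 and 0.498 in the AG mice, and 1.89 and 1.68 in the AG_CPI mice. The AG_CPI mice were the highest 2 of the 6 and the AG mice the lowest 2. Itga1 rose in AG_CPI against AG by 1.43 (SE 0.202, 95% interval 0.99 to 1.87, adjusted p = 0.0157) and against NO_AG by 1.05 (adjusted p = 0.0117), while AG against NO_AG was -0.39 (adjusted p = 0.385). Leaving out either NO_AG mouse or either AG_CPI mouse ended the call against AG (adjusted p from 0.0509 to 0.29) with a change of 1.34 to 1.52; without NO_AG 1, AG_CPI 1 or AG_CPI 2, the call against NO_AG was lost too, with 0.88, 0.95 and 1.12. Both calls were also lost with no filter on low values (adjusted p = 0.375 and 0.0876) and with thinned cells (adjusted p = 0.116 and 0.0791).

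In the CD8 T cells with a Trbv13-3 UMI, Itga1 was at 0.58 and 0.449 in the AG mice and 2.03 and 1.82 in the AG_CPI mice, and it rose by 1.70 (SE 0.187, 95% interval 1.29 to 2.11, adjusted p = 0.00345); with no filter on low values the adjusted p was 0.0619. The share of these cells with an Itga1 UMI was 17.4% and 12.7% in the AG mice and 35% and 35.7% in the AG_CPI mice, where 1.68% to 4.17% of keratinocytes had one. In cells without the segment Itga1 was at 0.796 and 0.571 in the AG mice and 1.7 and 1.4 in the AG_CPI mice (1.06, adjusted p = 0.0521). This passed under several other settings, among them a pseudocount of 0.5 (adjusted p = 0.0423), and without AG 1 (1.27, adjusted p = 0.0115), but not with no filter on low values (adjusted p = 0.301). With another Trbv UMI required of those, it was at 0.892 and 0.679 in the AG mice and 0.93 and 0.861 in the AG_CPI mice, and the difference was 0.16 (adjusted p = 0.909). The interaction was 0.64 (adjusted p = 0.0979; called without AG 2, at 0.71), and 1.53 (adjusted p = 3.89e-04) under that stricter choice.

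Cd69, the early activation and retention receptor, was measured over all CD8 T cells at 4.86 and 4.36 UMIs per 10000 in the NO_AG mice, 3.36 and 2.31 in the AG mice, and 2.13 and 2.38 in the AG_CPI mice. Both NO_AG mice lay above all others. Cd69 fell in AG_CPI against NO_AG by 0.93 (SE 0.185, adjusted p = 0.0139), a call lost without NO_AG 1 (-0.84), AG_CPI 1 (-0.86) or AG_CPI 2 (adjusted p = 0.0606), and with no filter on low values (adjusted p = 0.0992). AG against NO_AG was -0.60 (adjusted p = 0.127), and it was called without AG 1 (-0.86, adjusted p = 0.0167). In cells without Trbv13-3 it was at 4.9 and 4.44 in the NO_AG mice, 4.35 and 3.47 in the AG mice, and 1.81 and 2.28 in the AG_CPI mice, so the AG mice stood with NO_AG and apart from AG_CPI. There it fell in AG_CPI against NO_AG by 1.08 (adjusted p = 0.00337) and against AG by 0.93 (adjusted p = 0.0409). The second call was lost with no filter on low values (adjusted p = 0.279) and with thinned cells (-0.81, adjusted p = 0.138). In cells with Trbv13-3 it was at 2.33 and 1.54 in the AG mice and 2.36 and 2.43 in the AG_CPI mice (0.28, adjusted p = 0.643).

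The interaction of segment and group for Cd69 was 1.22 (SE 0.15, adjusted p = 0.00228) and 1.37 with the stricter choice of cells without Trbv13-3. In AG 1 and AG 2, cells with the segment had less Cd69 than those without, by -0.87 and -1.12, and in AG_CPI 1 and AG_CPI 2 the differences were 0.37 and 0.09. As for Itgae, the call was lost without AG_CPI 1 (1.08), without AG_CPI 2 (1.35) and without the mouse as a block (adjusted p = 0.36). The fall in cells without Trbv13-3 against AG was a call in the full set of mice that was lost without NO_AG 1, NO_AG 2, AG 1, AG_CPI 1 or AG_CPI 2, with changes from -0.77 to -1.08; against NO_AG it was lost without NO_AG 1 (-0.98) or AG_CPI 1 (-0.94).

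S1pr1, the receptor that draws T cells towards lymph, was close to the limit of detection in CD8 T cells, with 4, 7, 13, 13, 31 and 67 UMIs in NO_AG 1, NO_AG 2, AG 1, AG 2, AG_CPI 1 and AG_CPI 2. The levels were 0.149 and 0.0582, 0.0423 and 0.0561, and 0.104 and 0.182 UMIs per 10000, and both AG_CPI mice lay above both AG mice (0.68, 95% interval 0.09 to 1.27, adjusted p = 0.796). The shares of CD8 T cells with a UMI were 1.25% to 4.64%. In the cells with Trbv13-3, S1pr1 had 4 and 7 UMIs in AG and 19 and 48 in AG_CPI and was too low to be tested. Klf2, which drives S1pr1, was at 0.583 and 0.612 in the NO_AG mice, 0.273 and 0.185 in the AG mice, and 0.194 and 0.431 in the AG_CPI mice. Both AG mice and both AG_CPI mice lay below both NO_AG mice, but neither difference passed: AG against NO_AG was -1.01 (95% interval -1.60 to -0.43, adjusted p = 0.0711) and AG_CPI against NO_AG was -0.76 (adjusted p = 0.157). The first was called without AG_CPI 1 (adjusted p = 0.0445). In cells without Trbv13-3, AG against NO_AG was -0.45 (limma adjusted p = 0.585) and AG_CPI against NO_AG was -0.70 (adjusted p = 0.169). With another Trbv UMI required of those, the 2 changes were -0.11 (adjusted p = 0.961) and -0.31 (adjusted p = 0.699). In cells with Trbv13-3, Klf2 was at 0.158 and 0.091 in the AG mice and 0.161 and 0.473 in the AG_CPI mice (0.79, adjusted p = 0.37), with AG_CPI 2 apart from the other 3 mice. This difference was 0.22 without AG_CPI 2 and 1.36 without AG_CPI 1, where it was called (adjusted p = 0.0017).

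Counted over the genes, 2 of 6 passed in all CD8 T cells for AG against NO_AG (Itgae and Cdh1, both lower), where 2.92% of all 7203 genes passed. For AG_CPI against AG 1 of 6 passed, where 0.125% of genes did, and for AG_CPI against NO_AG 3 of 6 passed (Itga1 higher, Cd69 and Cdh1 lower), where 4.04% did. In cells without Trbv13-3 the counts were 0 of 6 for AG against NO_AG (0.704% of 7244 genes, and 705 genes with an unadjusted p under 0.05 by limma), 1 of 6 for AG_CPI against AG (0.359%) and 1 of 6 for AG_CPI against NO_AG (2.53%). In cells with Trbv13-3, 1 of the 5 genes tested passed for AG_CPI against AG, where 0.927% of 7012 genes did. For the interaction 2 of 6 passed, where 1.54% of 7464 genes did. The comparisons of AG_CPI with AG and with NO_AG share the AG_CPI mice, and those of AG and AG_CPI with NO_AG share the NO_AG mice.

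**Figure D3:**
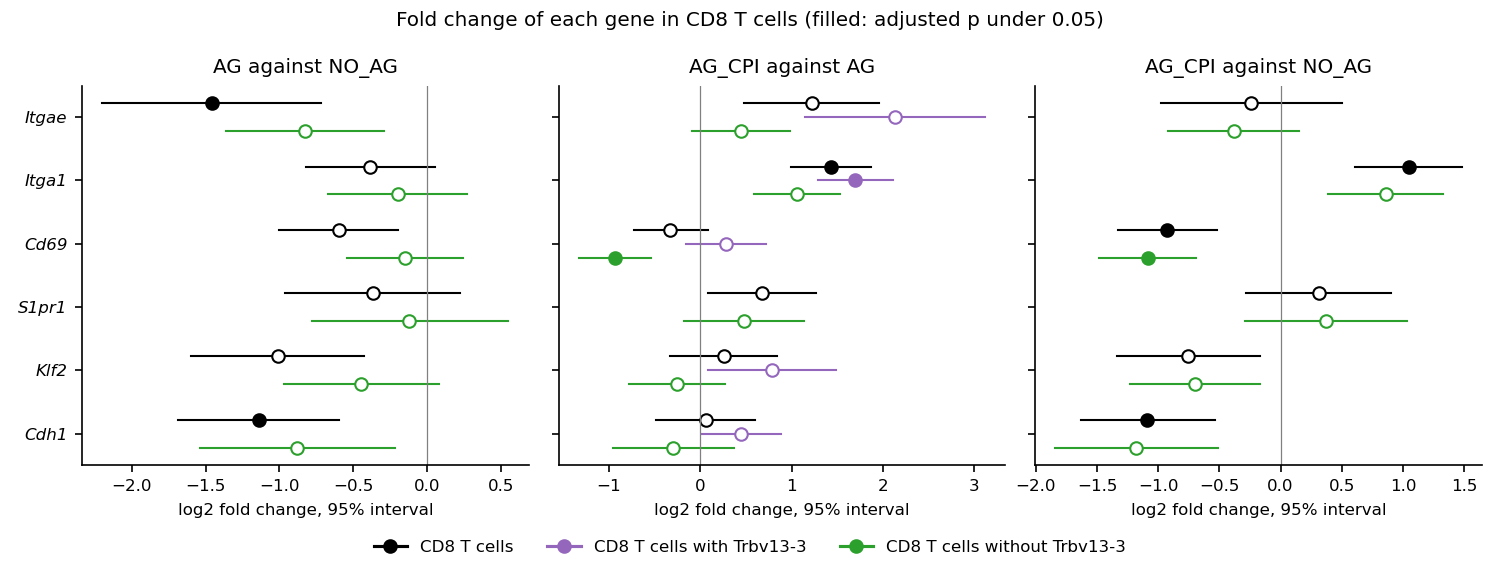
Log2 fold change (horizontal axis) with its 95% interval for each gene (rows) in all CD8 T cells, those with and those without a Trbv13-3 UMI; filled points passed an adjusted p of 0.05. Itga1 lies at 1.43 and 1.70 in the first 2 of these for AG_CPI against AG, and Cd69 at -0.93 in cells without the segment.

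The CD8 T cells fell into clusters that were built without the 6 genes, without receptor segments and without sex-linked genes, and the groups filled them differently. Cluster 5 (led by Cd40lg, Cd8a, Cxcr3 and several beta segments) held 79.8% and 78.5% of the CD8 T cells in NO_AG, 40.3% and 13.8% in the AG mice and 3.43% and 5.41% in the AG_CPI mice. Cluster 35 (Gzma, Ccl1, Ifng, Klrc1 and Cxcr6) held 29.5% and 16.5% in the AG mice and 67.2% and 70.5% in the AG_CPI mice, and cluster 20 (Ccl5, Gzmk, Gzmb, Gimap genes, Itga4 and Pdcd1) held 17.4% and 38.1% in the AG mice and 12.3% and 11.8% in the AG_CPI mice. Cluster 19, in which 83% of cells had an Mki67 UMI, a gene of dividing cells, held 9.8% to 27.5% across the mice. Of the cells in cluster 5, 3.63% and 5.71% had Trbv13-3 in AG, against 81.6% and 63.2% in cluster 35. As the number of P14 cells was checked before sequencing, these shares describe makeup and are not used as a result. The part of this makeup in the differences over all CD8 T cells was not tested.

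Levels differed between groups also inside some of the clusters. In cluster 35, Itgae was at 2.11 and 1.07 in the AG mice and 3.27 and 4.76 in the AG_CPI mice, and Itga1 at 0.794 and 0.921 in the AG mice and 2.21 and 1.95 in the AG_CPI mice. In cluster 20 Itgae was at 0.282 and 0.103 in the AG mice and 0.558 and 0.868 in the AG_CPI mice, the lowest Itgae of the 4 large clusters in each of these mice. Itga1 in cluster 20 was at 0.316 and 0.338 in the AG mice and 1.36 and 1.16 in the AG_CPI mice, and in cluster 19 at 0.544 and 0.389 and at 1.2 and 1.14. In cluster 5 the order was not the same, with Itga1 at 0.824 and 0.758 in the AG mice and 0.562 and 0.746 in the AG_CPI mice. Itgae overlapped between the groups in cluster 5, at 3.06 and 2.74 in AG and 1.32 and 3.14 in AG_CPI. It also overlapped in cluster 19, at 1.76 and 0.357 in AG and 1.38 and 2.48 in AG_CPI. Cd69 in cluster 5 was at 4.8 and 5.93 in AG, with 3.74 and 2.52 in AG_CPI, and in cluster 35 at 2.11 and 1.55 in the AG mice and 2.05 and 2.25 in the AG_CPI mice. Cluster 5 held 386 and 105 cells of the AG mice and 38 and 64 cells of the AG_CPI mice. Of these, 3.63% and 5.71% in AG and 28.9% and 37.5% in AG_CPI had Trbv13-3. These values within clusters are descriptions and were not tested.

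**Figure D4:**
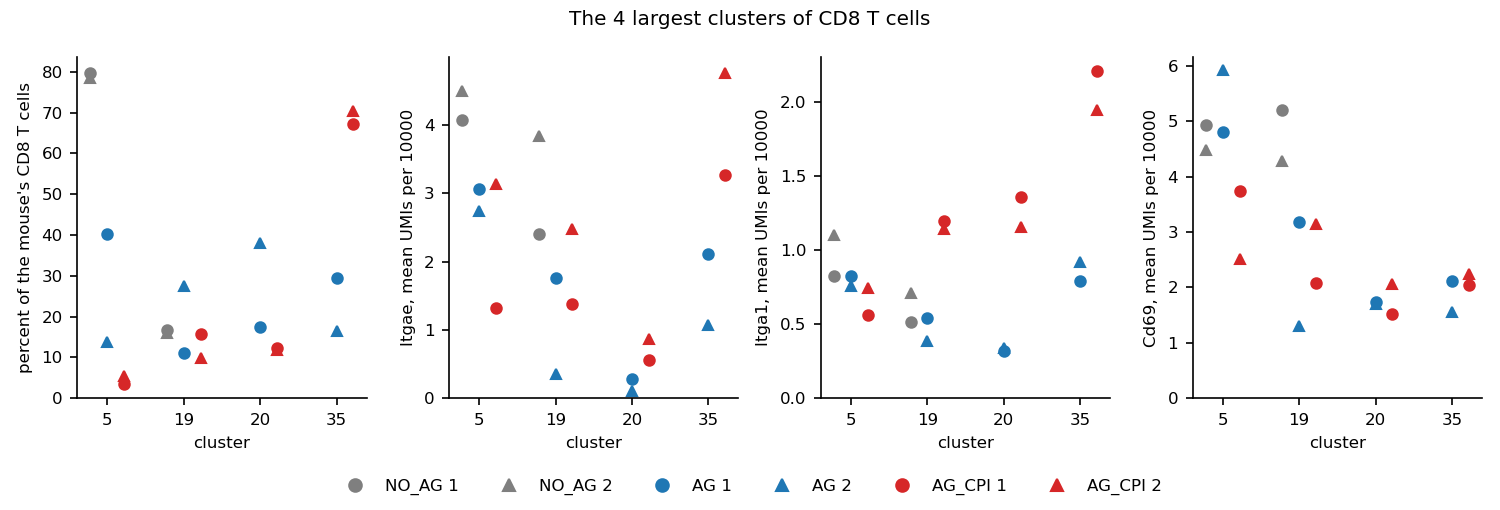
The 4 largest clusters of CD8 T cells (horizontal axis) with, from left to right, the percent of a mouse's CD8 T cells in the cluster and the mean UMIs per 10000 of Itgae, Itga1 and Cd69 (vertical axes); each point is 1 mouse. In cluster 35 both AG_CPI mice lie above both AG mice for Itgae (3.27 and 4.76 against 2.11 and 1.07) and Itga1 (2.21 and 1.95 against 0.794 and 0.921).

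In single CD8 T cells, thinned to 1500 UMIs, Cd69 was found in 40.1% of the cells with Itgae and 29.1% of those without it in AG 1, and in 47.9% and 19.8% in AG 2. In the other 4 mice the 2 shares lay closer, at 43.2% and 40% in NO_AG 1, 35.6% and 39% in NO_AG 2, 20.3% and 23.8% in AG_CPI 1, and 22.5% and 25.2% in AG_CPI 2. Itga1 was found in 31.1% of the cells with Itgae and 20.3% of those without in AG_CPI 1, and in 21.4% and 19.2% in AG_CPI 2. A UMI of S1pr1 or Klf2 was in 3.5% to 11.4% of the Itgae cells and 2.33% to 12% of the others over the 6 mice, so the egress genes were not rarer in cells with Itgae in every mouse.

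Other genes of residency, egress and the pathways around these receptors gave the following counts. Of 27 residency-associated genes tested in all CD8 T cells, Itgae, Itga1, Cd69 and Cdh1 among them, 3 rose and 3 fell in AG against NO_AG, where 2.92% of all genes passed, with a median of -0.09 beside 0.02 over all genes. The orphan receptor Nr4a2, which follows antigen receptor signalling, went from 0.808 and 0.555 to 1.82 and 1.94 UMIs per 10000 (1.45, adjusted p = 0.00172), and Isg20 (1.03, adjusted p = 0.00772) and the costimulator Icos (0.97, adjusted p = 0.00955) rose too. The aryl hydrocarbon receptor Ahr, known to sustain T cells in epidermis, went from 0.451 and 0.397 to 0.125 and 0.0589 (-1.40, adjusted p = 0.013). For AG_CPI against AG, 1 of the 27 passed (Itga1 itself), where 0.125% of all genes did, with a median of 0.19 beside -0.01. For AG_CPI against NO_AG, 6 rose and 3 fell, where 4.04% of all genes passed, with a median of 0.12 beside 0.02; Rgs1, a brake on chemokine receptor signalling, went from 3.93 and 4.06 to 8.67 and 7.06 (1.03, adjusted p = 0.00224). The residency factors Runx3, Zfp683 and Prdm1 did not pass in any of the 3 comparisons, and Zfp683 was low, at 0.172 and 0.375, 0.144 and 0.0367, and 0.0447 and 0.065. The chemokine receptor Cxcr6 was at 7.39 and 9.91, 10.9 and 7.07, and 11.9 and 14.3, and did not pass either.

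Of 14 egress and recirculation genes tested, S1pr1 and Klf2 among them, 1 passed in AG against NO_AG (Tcf7, lower), none passed in AG_CPI against AG by limma, and 1 rose and 1 fell in AG_CPI against NO_AG. Over all genes 2.92%, 0.125% and 4.04% passed in these, and the medians of the 14 were 0.02, 0.24 and 0.17. Tcf7, the transcription factor of memory-like and recirculating T cells, was at 1.28 and 1.39 in the NO_AG mice, 0.708 and 0.459 in the AG mice, and 0.198 and 0.209 in the AG_CPI mice, the levels of the 3 groups not overlapping (adjusted p = 0.0258 for AG and, with a change of -2.18, 6.83e-05 for AG_CPI, each against NO_AG). In cells without Trbv13-3, Tcf7 was at 1.3 and 1.38 in the NO_AG mice and 1.22 and 1.01 in the AG mice (-0.15, adjusted p = 0.855). Of the 27 residency-associated genes in those cells, 1 rose and 0 fell in AG against NO_AG, where 0.704% of all genes passed. There, 5 rose and 2 fell (Cd69 and Ahr) in AG_CPI against NO_AG, where 2.53% did, and 1 (Cd69) fell in AG_CPI against AG, where 0.359% did. In cells with Trbv13-3, AG_CPI against AG, 2 of 26 residency-associated genes and 2 of 12 egress and recirculation genes rose, where 0.927% of all genes passed. The interleukin-7 receptor Il7r went from 0.628 and 0.59 to 2.1 and 2.85 (1.82, adjusted p = 0.00345), and the chromatin organiser Satb1 from 0.309 and 0.423 to 1.42 and 1.06 (1.49, adjusted p = 0.0103). Both calls end with no filter on low values, where no gene was called. In the interaction of segment and group, 4 of 26 residency-associated genes were higher, Itgae, Cd69 and Itgb7 among them, and 1, Nr4a2, was lower (-0.93, adjusted p = 0.0438), where 1.54% of all genes passed. Il7r also had an interaction (2.05, adjusted p = 3.60e-04), as did Tcf7 (2.13, adjusted p = 0.00204), whose level fell in cells without the segment (-1.87, adjusted p = 4.76e-04). Without AG_CPI 2 none of these interactions was called, and without the mouse as a block 1 gene of all those tested was. In CD8 T cells, Ccr7 was at 0.0196 to 0.0889 and S1pr5 at 0 to 0.0365; S1pr4 was at 0.456 to 0.652 and did not pass.

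Of 11 genes of the TGF-beta axis tested, the pathway that induces Itgae, 1 rose in AG against NO_AG and 1 rose and 2 fell in AG_CPI against NO_AG, and none passed in AG_CPI against AG by limma. The medians were -0.09, -0.01 and 0.12, and 2.92%, 4.04% and 0.125% of all genes passed, in this order. Itgav, a chain of the integrins that release TGF-beta from its latent form, went from 0.119 and 0.28 in NO_AG to 0.581 and 0.849 in the AG mice and 0.855 and 0.883 in the AG_CPI mice (1.56, adjusted p = 0.00669, and 1.80, adjusted p = 0.00164). The receptor Tgfbr1 was at 0.396 and 0.309, 0.15 and 0.11, and 0.0731 and 0.107; it fell in AG_CPI against NO_AG by 1.20 (adjusted p = 0.0114), and AG against NO_AG was -0.90 (adjusted p = 0.0575). Smad3, a signal transducer of that receptor, fell in AG_CPI against NO_AG by 0.95 (adjusted p = 0.0355). Tgfb1 and Tgfbr2 did not pass in any of the 3 comparisons. Of 6 genes that handle sphingosine-1-phosphate tested in all CD8 T cells, none passed by limma in these 3 comparisons, with medians of 0.18 for AG against NO_AG, 0.09 for AG_CPI against NO_AG and 0.07 for AG_CPI against AG.

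In keratinocytes, which present it to CD103, Cdh1 was at 1.54 and 1.4 UMIs per 10000 in the NO_AG mice, 1.61 and 1.77 in the AG mice, and 2.06 and 1.58 in the AG_CPI mice. All 4 AG and AG_CPI mice lay above both NO_AG mice, by less than the test could call: AG against NO_AG was 0.27 (95% interval -0.15 to 0.70, adjusted p = 0.714), AG_CPI against NO_AG was 0.42 (adjusted p = 0.311), and AG_CPI against AG was 0.15 (adjusted p = 0.839). The share of genes called was 0.518%, 0.592% and 0.0247% of 8102, respectively, and 0 of 1 member passed in each; 733, 1303 and 803 genes had an unadjusted p under 0.05 by limma. The numbers of keratinocytes were 2122 and 1739, 1044 and 1366, and 168 and 191, so AG_CPI rests on the fewest cells. Over 49 points (a keratinocyte cluster in a mouse, 24 clusters, at least 20 cells), Cdh1 ranged from 0.281 to 3.13 with a median of 1.48. Of the 14 genes tested among Cdh1, its partners and epidermal adhesion genes, 12 were higher in AG than NO_AG, in AG_CPI than AG and in AG_CPI than NO_AG, with medians of 0.21, 0.12 and 0.37 beside 0.01, 0.00 and 0.03 over all genes, and none passed by limma. Of another 12 genes, of keratinocyte identity, 8, 8 and 10 had higher values in the same comparisons, with medians of 0.30, 0.20 and 0.49, and none passed by limma. The part of this in the adhesion genes was not tested.

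Cdh1 was also found in T cells. In gamma-delta T cells it was at 1.34 and 1.29 in NO_AG and 1.87 and 1.46 in AG, overlapping the keratinocytes of the same mice, whereas CD4 T cells were at 0 to 0.168. In CD8 T cells it was at 0.777 and 0.541 in the NO_AG mice, 0.298 and 0.159 in the AG mice, and 0.246 and 0.232 in the AG_CPI mice, all 4 lower than both NO_AG mice. It fell by 1.14 in AG (SE 0.251, adjusted p = 0.0315) and by 1.09 in AG_CPI (adjusted p = 0.0306) against NO_AG. The first call was lost without NO_AG 1 (-0.91) or AG 2 (-0.84), and the second without NO_AG 1 (-0.85), AG_CPI 1 (-1.13) or AG_CPI 2 (-1.06). With no filter on low values both calls were lost (adjusted p = 0.171 and 0.151), as was the first when no Trdc UMI was allowed (-0.95, adjusted p = 0.0969) and the second with thinned cells (-1.21, adjusted p = 0.0559). In cells without Trbv13-3 neither change passed, at -0.88 in AG (limma adjusted p = 0.390) and -1.18 in AG_CPI (adjusted p = 0.061). The AG_CPI change there passed under several other settings. Among them were no Trdc UMI allowed (-1.37, adjusted p = 0.018) and another Trbv UMI required (-1.79, adjusted p = 0.00898). The summed level of 12 keratinocyte genes (keratins, Perp, Sfn, Lgals7 and others) in CD8 T cells was 5.68 and 5.88 in the NO_AG mice, 6.36 and 7.81 in the AG mice, and 3.52 and 4.11 in the AG_CPI mice, which is 0.7% to 1.71% of its level of 431 to 554 in keratinocytes. Of the 12, none passed in AG against NO_AG by limma (8 were higher), where 2.92% of all genes did, and 3 fell in AG_CPI against NO_AG (4.04% of all genes passed). In AG_CPI against AG, where 0.125% of all genes passed, 1 of the 12 (Krt17) fell and 1 had a higher value. At the ratio of Cdh1 to these genes in keratinocytes, that RNA would carry 0.0118 to 0.0302 Cdh1 UMIs per 10000 in CD8 T cells and 0.0207 to 0.043 in gamma-delta T cells, below every measured value. Dendritic or Langerhans-like cells had Cdh1 at 2.44 to 3.8 over 4 mice, and the part of RNA from any of these cells in the fall was not tested beyond these values.

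Gamma-delta T cells, here the clusters led by Trdv4 and Trdc that resemble the dendritic epidermal T cells of mouse skin, came to 515 and 350 cells from NO_AG, 229 and 101 cells from AG, and 6 and 16 cells from AG_CPI, so only AG and NO_AG were compared. No gene of 7180 passed by limma (0%, with 590 genes at an unadjusted p under 0.05), nor did any of the 4 members tested. Itgae was at 3.92 and 3.65 in NO_AG and 3.8 and 2.78 in AG (-0.05, 95% interval -0.50 to 0.41). S1pr1 had 1 UMI in all gamma-delta T cells. Klf2 was at 0.16 and 0.206 in NO_AG, 0.237 in AG 1 and 7.75 in AG 2, where 61.4% of cells had a UMI, and at 4.59 in the 16 cells of AG_CPI 2 (AG against NO_AG 2.67, 95% interval -0.37 to 5.72, adjusted p = 0.62). Cd69 was at 1.87 in AG 1 and 4.27 in AG 2. The 2 AG libraries were thus not alike in these cells. In the order of 16150 genes by how far AG 2 lay above AG 1, Klf2 was the second, after Gzmb (1.04 and 35.6). Genes lower in AG 2 were not ranked by size. Trdv4 was at 59.3 and 47.2 and Trdc at 10.5 and 9.43, but Cd3e, a chain of the receptor complex, was at 83.6 in AG 1 and 38.1 in AG 2, below the 77.3 and 74.5 of the NO_AG mice.

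CD4 T cells, of which there were 38 and 50 in the NO_AG mice, 169 and 128 in the AG mice, and 29 and 52 in the AG_CPI mice, had 3 of the members at testable levels, and none of them passed by limma in AG against NO_AG (0.043% of 4650 genes passed, and 301 had an unadjusted p under 0.05), AG_CPI against AG (0.0215%, 184) or AG_CPI against NO_AG (0.323%, 586). Itgae was at 2 and 2.38, 3.24 and 1.96, and 1.63 and 3.61, with the groups overlapping in each comparison (0.13, -0.01 and 0.13). Cd69 was at 5.98 and 2.58, 3.63 and 1.95, and 2.48 and 3.39. Klf2 was at 0.76 and 0.691, 0.452 and 0.0806, and 0.277 and 0.735, and both AG mice lay below both NO_AG mice (-1.44, 95% interval -2.74 to -0.13, adjusted p = 0.732). These Klf2 levels rest on 56 UMIs over all 6 mice. CD4 T cells with a Foxp3 UMI, a mark of regulatory T cells, had Itgae at 2.11 to 4.94 over 4 mice, and those without one at 1 to 4.05 over 6. Of 9 egress and recirculation genes tested in CD4 T cells, Tcf7 alone was called, lower in AG_CPI than NO_AG (-3.10, adjusted p = 0.0402). It had 8 and 12 UMIs in the NO_AG mice and 0 and 1 in the AG_CPI mice, so this fitted change depends on the pseudocount.

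The genes whose log2 levels ran most like a member over 20 points (a mouse and 1 of 4 T-cell classes with at least 20 cells) were Cxcr6, Hcst and Epsti1 for Itga1 (each at a Pearson r of 0.92), and Capg (0.79), Rgs10 (0.72) and Ly6e (0.69) for Itgae. For Cd69 they were Setd4 (0.75), Tnfsf14 (0.71) and Il9r (0.70), for S1pr1 Ccser2 (0.82), Ankrd44 (0.79) and Tmem71 (0.77), and for Klf2 Ftl1 (0.83), Fxyd4 (0.81) and Capn2 (0.80). The 20 points share 6 libraries and 4 classes, and these values are descriptions. Among the members, Itga1 and S1pr1 (0.65) and Cd69 and Klf2 (0.61) were most alike, and Itgae and Itga1 were at 0.06.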

How the data were processed

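Skin cells of 6 mice, 2 in each of 3 groups, were profiled by 10x 5′ single-cell RNA sequencing. Per the submitters' processing notes, Cell Ranger 3.1 and mm10 were used. The authors deposited 1 table per mouse whose values, judged from the values themselves, are log10 of 1 plus the UMIs per 10000 in a cell; 10 to that value minus 1 gives the UMIs per 10000, and whole UMIs and each cell's depth follow from its smallest step. How cells were selected before deposit is not given in the sources used here.

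Cells with under 200 genes or over 20% mitochondrial UMIs and simulated-doublet neighbours (1.39% to 3.98% per mouse) were left out. Clusters (scanpy 1.11.5, Leiden) were named from markers; the naming rule went through 3 versions as leading genes were seen, before any gene was tested. T cells were then gated by UMIs, and a Trdc UMI did not exclude a CD8 T cell. Levels per mouse and class were scaled by trimmed mean of M-values and tested with limma 3.58.1 (R 4.3.3) on log2 of the level plus 0.1, over genes with at least 10 UMIs and a mean of 0.1 in 2 mice, in classes of at least 10 cells. Adjusted p is Benjamini-Hochberg over all genes of a comparison at 0.05, and fold changes on this scale understate changes of low genes. Tests within a mouse used the mouse as a block. An exact permutation test of 2 against 2 mice cannot go below a two-sided p of 0.333, so none was run. Intervals of shares are Wilson and cover counting error only.

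Named genes were the 6 members, list genes with the smallest p among those called without overlap (up to 3 per direction and list), a set of receptor and factor genes taken whatever their result, and the 3 genes most like each member. Members and lists were chosen with earlier results of these data known. The scripts were tested on simulated data. Same-numbered mice did not deviate together in CD8 T cells (correlations of -0.09, 0.01 and -0.23); in keratinocytes the correlations were 0.19, 0.12 and -0.04. The labels do not say that numbers pair mice, so no replicate block was used. Gamma-delta T cells of AG_CPI (6 and 16 cells) were not compared. 1 gene of the lists is not reported here.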

Additional observations from a re-analysis of the deposited data

Results flagged for a closer look

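The change of Itgae between AG_CPI and AG differed between CD8 T cells with and without Trbv13-3, by 1.68 on the log2 scale (limma interaction, adjusted p = 0.00411). In the first, both AG_CPI mice lay above both AG mice, a difference of 2.13 that did not pass (adjusted p = 0.0527). In the second the groups overlapped (0.45), and with another Trbv UMI required the sign turned (-1.04, adjusted p = 0.0238). The same difference for Cd69 was 1.22 (adjusted p = 0.00228): AG_CPI against AG was 0.28 in the first, where it did not pass, and -0.93 in the second. Both calls rest on 4 mice and were lost when either AG_CPI mouse was left out.

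Klf2 in AG against NO_AG was higher in gamma-delta T cells and lower in CD8 T cells in both mice of each group, a gap of 3.68 on the log2 scale, and lower in CD4 T cells too, a gap of 4.11. Neither gap was tested, and the gamma-delta T cells of the AG mice were far apart, at 7.75 in AG 2 and 0.237 in AG 1. Cdh1 was likewise higher in gamma-delta and lower in CD8 T cells, a gap of 1.61 that was not tested.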

How the results depend on the processing

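Of 1061 values of the 6 genes under the alternatives, 925 kept their direction and their side of the threshold, 50 lost a call, 52 gained one and 34 changed sign; 110 of 253 counts of genes called moved by over 1.5 times. The cause of these changes was not tested. The scaling itself moved a mouse's level by -0.29 to 0.19 on the log2 scale, and leaving it out ended no call of a member. It brought in Itga1 against AG (1.08) and Cdh1 against NO_AG (-1.24) for AG_CPI in cells without Trbv13-3, and Itgae in cells with it (2.16). This Itgae call also came with a pseudocount or a Leiden resolution of 0.5, the 6 genes kept in clustering or no Trdc UMI allowed. The Itga1 call also came with that pseudocount or resolution, those genes kept, doublets kept or stricter filters. S1pr1 gave no value where it fell under the filter. With no filter on low values, the genes called were 34 (CD8 T cells AG against NO_AG, was 210), 1 (CD8 T cells AG_CPI against AG, was 9), 82 (CD8 T cells AG_CPI against NO_AG, was 291), 4 (cells without Trbv13-3 AG against NO_AG, was 51), 2 (cells without Trbv13-3 AG_CPI against AG, was 26), 70 (cells without Trbv13-3 AG_CPI against NO_AG, was 183), 0 (cells with Trbv13-3 AG_CPI against AG, was 65), 1 (CD4 T cells AG against NO_AG, was 2), 1 (CD4 T cells AG_CPI against NO_AG, was 15), 2 (keratinocytes AG against NO_AG, was 42), 0 (keratinocytes AG_CPI against AG, was 2), 2 (keratinocytes AG_CPI against NO_AG, was 48), 4 (cells with against without Trbv13-3, was 10), 14 (the interaction, was 115). There, Itgae in CD8 T cells AG against NO_AG (-1.46), Itga1 in CD8 T cells AG_CPI against AG (1.43), Itga1 in CD8 T cells AG_CPI against NO_AG (1.05), Cd69 in CD8 T cells AG_CPI against NO_AG (-0.93), Cdh1 in CD8 T cells AG (-1.14) and AG_CPI (-1.09) against NO_AG, Cd69 in cells without Trbv13-3 AG_CPI against AG (-0.93), Itga1 in cells with it (1.70) and the interaction of Itgae (1.68) no longer passed. With a pseudocount of 0.5, the genes called were 14 (CD8 T cells AG_CPI against AG, was 9), 0 (keratinocytes AG_CPI against AG, was 2). There, Itgae in CD4 T cells AG_CPI against AG (0.00) changed sign. With no Trdc UMI allowed in the CD8 gate, the genes called were 125 (CD8 T cells AG against NO_AG, was 210), 42 (cells without Trbv13-3 AG_CPI against AG, was 26), 225 (the interaction, was 115). There, Itgae (-1.29) and Cdh1 (-0.95) in CD8 T cells AG against NO_AG no longer passed. There, Cdh1 in CD8 T cells AG_CPI against AG (-0.17), Itga1 in cells with against without Trbv13-3 (0.03) changed sign. With each cell thinned to 1500 UMIs, the genes called were 97 (CD8 T cells AG against NO_AG, was 210), 4 (CD8 T cells AG_CPI against AG, was 9), 138 (CD8 T cells AG_CPI against NO_AG, was 291), 7 (CD4 T cells AG_CPI against NO_AG, was 15), 1 (keratinocytes AG_CPI against AG, was 2), 31 (keratinocytes AG_CPI against NO_AG, was 48). There, Itgae in CD8 T cells AG against NO_AG (-1.38), Itga1 in CD8 T cells AG_CPI against AG (1.43), Itga1 in CD8 T cells AG_CPI against NO_AG (1.01), Cdh1 in CD8 T cells AG_CPI against NO_AG (-1.21), Cd69 in cells without Trbv13-3 AG_CPI against AG (-0.81) no longer passed. There, Itgae in CD4 T cells AG_CPI against AG (0.17) changed sign. With another Trbv UMI needed, the genes called were 14 (cells without Trbv13-3 AG against NO_AG, was 51), 100 (cells without Trbv13-3 AG_CPI against AG, was 26), 29 (cells with against without Trbv13-3, was 10), 333 (the interaction, was 115). There, Cd69 in cells without Trbv13-3 AG against NO_AG (0.14), Itgae in cells without Trbv13-3 AG_CPI against AG (-1.04), Itga1 in cells with against without Trbv13-3 (0.22) changed sign. With doublets kept, the genes called were 6 (CD4 T cells AG against NO_AG, was 2). There, Itgae in CD8 T cells AG against NO_AG (-1.45) no longer passed. There, Itgae in gamma-delta T cells AG against NO_AG (0.03) changed sign. With stricter cell filters, the genes called were 6 (CD4 T cells AG against NO_AG, was 2), 31 (CD4 T cells AG_CPI against NO_AG, was 15), 30 (the interaction, was 115). There, Itgae in CD8 T cells AG against NO_AG (-1.44) no longer passed. With a Leiden resolution of 0.5, the genes called were 7 (keratinocytes AG_CPI against AG, was 2), 77 (keratinocytes AG_CPI against NO_AG, was 48). With the 6 genes kept in clustering, the genes called were 6 (CD4 T cells AG against NO_AG, was 2), 79 (keratinocytes AG_CPI against NO_AG, was 48). There, Itgae in CD8 T cells AG against NO_AG (-1.44) no longer passed. There, Itgae in CD4 T cells AG_CPI against AG (0.01) changed sign. With Foxp3 UMIs not allowed in CD4 T cells, the genes called were 0 (CD4 T cells AG against NO_AG, was 2), 0 (CD4 T cells AG_CPI against AG, was 1). There, Itgae in CD4 T cells AG against NO_AG (-0.54), Itgae in CD4 T cells AG_CPI against AG (0.62) changed sign.

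With the replicate number as a block, the genes called were 23 (CD8 T cells AG_CPI against AG, was 9), 42 (cells without Trbv13-3 AG_CPI against AG, was 26), 100 (cells with Trbv13-3 AG_CPI against AG, was 65), 5 (CD4 T cells AG against NO_AG, was 2), 60 (gamma-delta T cells AG against NO_AG, was 0), 105 (keratinocytes AG_CPI against NO_AG, was 48). There, Klf2 in CD8 T cells AG against NO_AG (-1.01) then passed. With no mouse block in the interaction, the genes called were 1 (the interaction, was 115). Without that block the interactions of Itgae (1.68) and Cd69 (1.22) no longer passed. The replicate number as a block also brought in Itga1 (1.06 against AG and 0.86 against NO_AG) and Cdh1 (-1.18 against NO_AG) for AG_CPI in cells without Trbv13-3, Itgae in cells with it (2.13), and Klf2 in gamma-delta T cells (2.67), and changed no other call of the 6 genes. The labels do not say that the numbers pair mice.

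Leaving out 1 mouse at a time, which leaves a lone mouse assumed to vary like the others, the genes called ran from 85 to 453 (CD8 T cells AG against NO_AG), from 1 to 26 (CD8 T cells AG_CPI against AG), from 93 to 527 (CD8 T cells AG_CPI against NO_AG), from 5 to 145 (cells without Trbv13-3 AG against NO_AG), from 3 to 99 (cells without Trbv13-3 AG_CPI against AG), from 60 to 356 (cells without Trbv13-3 AG_CPI against NO_AG), from 65 to 257 (cells with Trbv13-3 AG_CPI against AG), from 1 to 9 (CD4 T cells AG against NO_AG), from 0 to 1 (CD4 T cells AG_CPI against AG), from 1 to 22 (CD4 T cells AG_CPI against NO_AG), from 0 to 2048 (gamma-delta T cells AG against NO_AG), from 15 to 160 (keratinocytes AG against NO_AG), from 0 to 9 (keratinocytes AG_CPI against AG), from 4 to 175 (keratinocytes AG_CPI against NO_AG), from 5 to 9 (cells with against without Trbv13-3), from 0 to 644 (the interaction). Calls gained by leaving out 1 mouse and not given above were Cdh1 in cells without Trbv13-3 AG against NO_AG (-1.37 without AG 1), in gamma-delta T cells Cd69 (1.20) and Klf2 (5.01) without AG 1 and Cdh1 (0.60) without AG 2, Itga1 (0.85 and 0.86) and Cdh1 (-1.19 and -1.18) in cells without Trbv13-3 AG_CPI against NO_AG without AG 1 or AG 2, and the interactions of Klf2 (1.14 and 0.93 without AG 1 or AG 2) and Cdh1 (1.21 without AG 2). For Itgae the log2 change then ran from -2.15 to -0.77 (CD8 T cells AG against NO_AG), from 0.53 to 1.91 (CD8 T cells AG_CPI against AG), from -0.55 to 0.06 (CD8 T cells AG_CPI against NO_AG), from -0.04 to 0.93 (cells without Trbv13-3 AG_CPI against AG), from 1.20 to 3.07 (cells with it), from -1.33 to -0.34 (cells without it, AG against NO_AG), from -0.17 to 0.54 (CD4 T cells AG against NO_AG), from -0.57 to 0.53 (CD4 T cells AG_CPI against AG), from -0.43 to 0.67 (CD4 T cells AG_CPI against NO_AG), from -0.23 to 0.13 (gamma-delta T cells AG against NO_AG). For Itga1 the log2 change then ran from 1.24 to 1.62 (CD8 T cells AG_CPI against AG), from 0.88 to 1.20 (CD8 T cells AG_CPI against NO_AG), from -0.42 to 0.02 (cells without Trbv13-3 AG against NO_AG), from -0.17 to 0.08 (cells with against without Trbv13-3). For Cd69 the log2 change then ran from -0.86 to -0.35 (CD8 T cells AG against NO_AG), from -1.03 to -0.84 (CD8 T cells AG_CPI against NO_AG), from -0.33 to 0.02 (cells without Trbv13-3 AG against NO_AG), from -1.26 to 0.03 (CD4 T cells AG against NO_AG), from -0.33 to 0.54 (CD4 T cells AG_CPI against AG), from -1.10 to 0.19 (CD4 T cells AG_CPI against NO_AG), from -0.03 to 1.20 (gamma-delta T cells AG against NO_AG). For S1pr1 the log2 change then ran from -0.02 to 0.63 (CD8 T cells AG_CPI against NO_AG), from -0.45 to 0.22 (cells without Trbv13-3 AG against NO_AG). For Klf2 the log2 change then ran from -1.21 to -0.83 (CD8 T cells AG against NO_AG), from -0.16 to 0.68 (CD8 T cells AG_CPI against AG), from 0.22 to 1.36 (cells with Trbv13-3 AG_CPI against AG). For Cdh1 the log2 change then ran from -0.25 to 0.36 (CD8 T cells AG_CPI against AG), from -0.78 to 0.19 (cells without Trbv13-3 AG_CPI against AG), from -0.04 to 0.34 (keratinocytes AG_CPI against AG), from -0.39 to 0.03 (cells with against without Trbv13-3).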

Other observations

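The gamma-delta T cells of AG 2 also differed from those of the other mice in genes other than Klf2. Gzmb, a killing granule protease, was at 35.6 UMIs per 10000 in AG 2 and at 0.129, 0.501 and 1.04 in NO_AG 1, NO_AG 2 and AG 1, and 59.4% of the AG 2 cells had a UMI. Gzmb was found in 58.1% of the AG 2 cells with a Klf2 UMI and in 61.5% of those without one. In AG_CPI 2, with 16 gamma-delta T cells, Klf2 was in 37.5% and Gzmb in 0%.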
